A study of Mus musculus with 6 samples.

Results

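The genes described here are 8 enzymes that supply or turn over deoxynucleotides for DNA synthesis: Rrm1, Rrm2, Rrm2b, Tyms, Tk1, Dut, Dck and Samhd1. They were taken by symbol from a table of 13007 genes, where each has a row, and all 8 passed the filter on low counts. RNA sequencing compared sorted cells of an acute erythroid leukemia model (AEL, 3 libraries) with normal erythroid precursors (NC, 3 libraries) from C57BL/6 mouse bone marrow. The AEL cells were labelled Trp53-/- and ERG-expressing, and were sorted for the GFP that marks the ERG vector, whose promoter is not given in the sources used here. The NC cells were labelled wild type and stained for CD71 (the transferrin receptor that takes up iron) and for Ter119 (on maturing red cells) before sorting. Every library, also those of NC, carries a source label that names mutations of SETBP1 and ASXL1, although NC is labelled wild type. The labels call the samples biological replicates but do not tie them to individual mice. The p-values therefore cover only the spread among these 6 libraries, which may be technical.

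DNA polymerases need the 4 deoxynucleotides in balance. Ribonucleotide reductase, a complex of the large subunit Rrm1 with the small subunit Rrm2 or Rrm2b, makes them by reducing ribonucleotides. Dut and Tyms then lead to thymidylate, Tk1 and Dck recover nucleosides by phosphorylating them, and Samhd1 breaks deoxynucleotides down again. Erythroid precursors divide rapidly and are known to be sensitive to blocks in thymidylate synthesis, as in folate deficiency.

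Library totals ran from 8171676 to 9945330 counts. Erg stood at 556 to 790 CPM (counts scaled to library size with TMM factors) in AEL and 4.38 to 8.52 CPM in NC. Trp53 stood at 976 to 1171 CPM in the libraries labelled Trp53-/- and 162 to 177 CPM in NC, and gene-level counts do not show whether the reads came from outside the deleted part, so they do not check that label. The 10 erythroid markers summed to 3268 to 8998 CPM in AEL and 37700 to 50287 CPM in NC, with none at 0 throughout either group. Macrophage and monocyte markers (12 genes) summed to 14 to 252 CPM in AEL and 4626 to 5576 CPM in NC, with Spic and Timd4 at 0 in AEL. Neutrophil markers (12 genes) summed to 18.9 to 1208 CPM in AEL and 8082 to 9450 CPM in NC, and B cell markers (9 genes) to 1.69 to 2.74 CPM and 202 to 248 CPM. Of 6 T and NK cell markers 4 had rows, summing to 0.225 to 0.823 CPM in AEL and 46.8 to 53.1 CPM in NC. Of 12427 genes tested with edgeR's quasi-likelihood test, 52.8% were called at an adjusted p under 0.05, 29.0% lower and 23.9% higher in AEL. The biological coefficient of variation was 44.4% in AEL and 9.16% in NC. Because each group was sorted on markers of its own, effects of the sort cannot be told apart from those of the leukemia, nor can fewer cells of a type from less RNA per cell.

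To show the control regions of the reductase subunits that moved unequally, and of the thymidylate synthase for comparison, a stretch of 100 bases before the start is printed for 3 genes (RefSeq, GRCm38.p6). It ends at the base before the RefSeq start for Rrm1 and Tyms, and for Rrm2 it covers bases 113 to 14 before it. The stretches are chr7:102441595-102441694 on the + strand for Rrm1, chr12:24708141-24708240 on the + strand for Rrm2, and chr5:30073626-30073725 on the - strand for Tyms. Each reads 5′ to 3′ along the gene. Capitals mark a CCAAT box, a GC box (GGGCGG) or an E2F-type hexamer (the letters TCCCGC, the variant TCGCGC, the variant TGCCGC and the variant TGGCGC), on either strand.
Rrm1: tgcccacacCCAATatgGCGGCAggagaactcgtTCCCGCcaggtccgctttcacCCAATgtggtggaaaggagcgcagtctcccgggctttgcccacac
Rrm2: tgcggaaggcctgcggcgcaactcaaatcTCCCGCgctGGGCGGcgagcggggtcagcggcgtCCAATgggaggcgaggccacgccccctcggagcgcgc
Tyms: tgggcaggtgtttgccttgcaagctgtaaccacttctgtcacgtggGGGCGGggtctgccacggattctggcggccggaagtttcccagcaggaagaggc

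Rrm1 and Rrm2 both held a CCAAT box and the hexamer TCCCGC in these stretches, while Tyms held a GC box alone. Over the 250 bases before the RefSeq start, a CCAAT box was in 2 of 7 enzyme windows (Rrm1 and Rrm2) and in 33.8% of all 32851 windows in the table. A GC box was in 6 of 7 enzyme windows, all but Rrm1, against 32.7% of all windows. An E2F-type hexamer was in 6 of 7, all but Tyms, against 31.1%. The longer form of that hexamer, with TT before it, was in 0 of 7 and in 1.86% of all windows. The motifs were chosen after the sequences were seen, and the windows of all genes were not matched for base composition. These shares therefore do not test for an excess among the enzymes. Such a match describes letters in the window and is not a binding site. Rrm2b has no entry in the table of promoters.

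Of the 8 enzymes, 7 fell in AEL and none was called higher. Over all genes tested, 29.0% were called lower. The fall was 7.19-fold for Rrm2, 5.96-fold for Tk1, 3.07-fold for Tyms, 2.57-fold for Dck, 2.09-fold for Rrm1, 1.89-fold for Samhd1 and 1.53-fold for Dut. Rrm2b alone lay above NC, at 1.38 times its level, and did not pass. For the count of 0 called higher, edgeR gave 0 at an unadjusted p under 0.05 as well, and DESeq2 and limma-voom gave 0 each. All 3 AEL libraries lay below all 3 NC libraries for 7 enzymes, against 36.1% of all genes, and above them for 1, Rrm2b, against 29.9%. Groups thus did not overlap for any of the 8, against 66.0% of all genes in either direction. Rrm2 and Tk1 were at least 4-fold lower, or 2 of 8, against 15.4% of all genes that were called and at least 4-fold lower. The median log2 fold change was -1.21 over the 8 enzymes and -0.05 over all genes tested. Scaling by library totals alone moved the all-gene median up by 0.19, and the 7 called enzymes were still called lower.

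**Figure D1:**
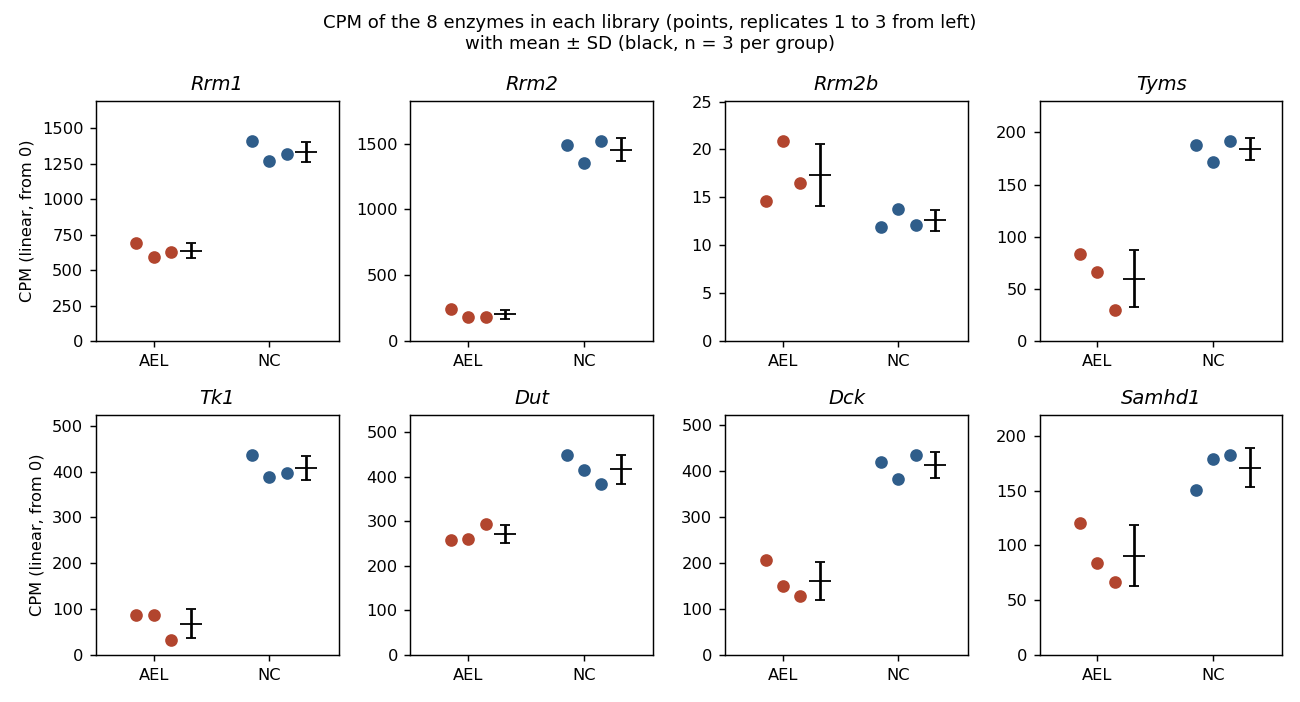
CPM of each enzyme (vertical axis, linear and starting at 0) in the 3 AEL and 3 NC libraries, as points, with mean ± SD beside them in black. For 7 enzymes every AEL point lies below every NC point, and for Rrm2b the AEL points, from 14.6 to 20.9 CPM, lie above the NC points, from 11.9 to 13.8 CPM.

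Ribonucleotide reductase showed an unequal change between its subunits. Rrm2, the small subunit made in S phase (chromosome 12, 24708241 to 24714146, + strand, 10 exons in its principal transcript), was at 241, 183 and 183 CPM in the AEL libraries and 1487, 1356 and 1521 in the NC libraries. The highest AEL library was thus far below the lowest NC library. Its log2 fold change was -2.85 (SE 0.16, edgeR adjusted p = 0.000104), and 12.6% of all genes tested had a lower one. Rrm1, the large subunit that holds the catalytic and regulatory sites (chromosome 7, 102441695 to 102469771, + strand, 19 exons), was at 694, 595 and 625 CPM in the AEL libraries and 1412, 1273 and 1318 in the NC libraries. The groups were apart here too, with a coefficient of variation of 8.02% in AEL. The log2 fold change of Rrm1 was -1.06 (SE 0.12, edgeR adjusted p = 0.000753).

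Rrm2b, the alternative small subunit known as a p53 target that serves cells outside S phase and after DNA damage (chromosome 15, 37923952 to 37961318, - strand, 9 exons), was at 14.6, 20.9 and 16.5 CPM in the AEL libraries and 11.9, 13.8 and 12.1 in the NC libraries. The groups did not overlap, but the lowest AEL library was close to the highest NC library. The test did not call it, at 0.46 on the log2 scale (SE 0.23, edgeR adjusted p = 0.135). Without AEL replicate 1, the lowest of the AEL libraries, it was 0.65 and passed narrowly (edgeR adjusted p = 0.0498), and its adjusted p ranged from 0.0498 to 0.325 over 18 alternatives. In GENCODE M21 an antisense gene, Gm49085, shares 734 exonic bases with Rrm2b, and the strandedness of the libraries is not given in the sources used here, so reads of the pair cannot be told apart.

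Within each library the balance of subunits moved as well. The log2 ratio of Rrm2 to Rrm1 counts was -1.67 ± 0.13 in AEL and 0.12 ± 0.07 in NC (SD, n = 3 each), a 3.46-fold lower ratio. The log2 ratio of Rrm2b to Rrm2 was -3.54 ± 0.46 in AEL and -6.84 ± 0.20 in NC (SD, n = 3 each), 9.85-fold higher. Per length of the principal transcripts, Rrm2b made up 2.83%, 5.22% and 4.15% of small-subunit RNA in AEL and 0.382%, 0.488% and 0.381% in NC. Rrm2 thus remained the far more abundant small subunit RNA in all 6 libraries. Ratios of 6 enzyme pairs were compared in all, and each separated the groups, with an exact two-sided permutation p = 0.10 (0.10 after Benjamini-Hochberg adjustment), the smallest that 3 against 3 libraries can give.

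**Figure D2:**
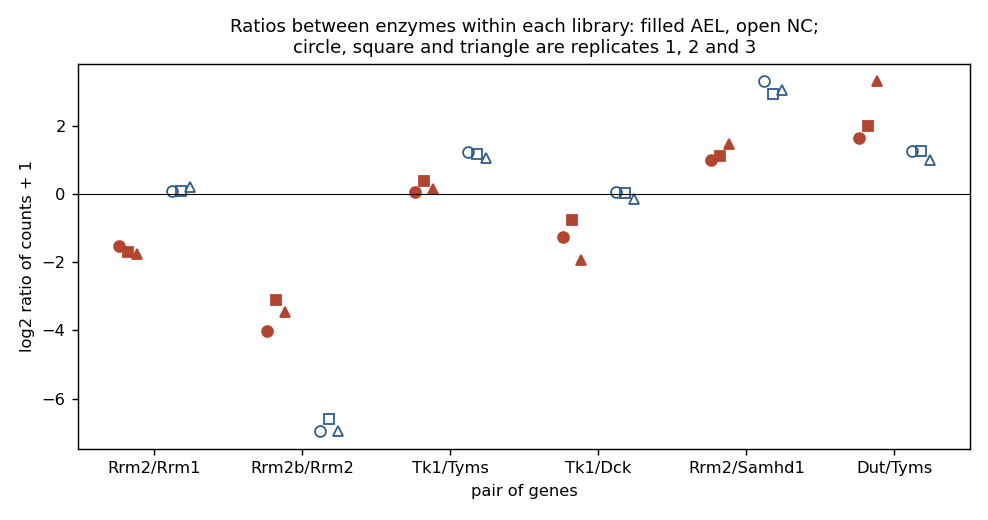
Log2 ratio of counts + 1 between pairs of enzymes (vertical axis) in each AEL library (filled) and NC library (open), with replicates 1, 2 and 3 as circle, square and triangle. AEL and NC do not overlap in any of the 6 pairs, and the widest gap is that of Rrm2b/Rrm2, at -4.03 to -3.12 in AEL and -6.96 to -6.60 in NC.

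The thymidylate enzymes fell by very different amounts. Tk1, the S phase thymidine kinase of the salvage route (chromosome 11, 117815526 to 117826092, - strand, 7 exons), was at 86.2, 86.4 and 32.8 CPM in the AEL libraries and 437, 389 and 397 in the NC libraries. AEL replicate 3 was well below the other AEL libraries, and all of them were below NC. The log2 fold change was -2.58 (SE 0.36, edgeR adjusted p = 0.0017). Afmid, a gene on the opposite strand that shares 83 exonic bases with Tk1, was at 7.04 to 12.8 CPM in AEL and 46.3 to 67.5 CPM in NC, so counts of both could include reads of the other.

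Tyms, which methylates dUMP to dTMP with a folate as donor (chromosome 5, 30058202 to 30073617, - strand, 7 exons), was at 83.7, 66.3 and 29.8 CPM in the AEL libraries and 188, 172 and 192 in the NC libraries. AEL replicate 3 was again the lowest, and the groups did not overlap. On the log2 scale the change was -1.62 (SE 0.35, edgeR adjusted p = 0.00811). A processed pseudogene, Tyms-ps, has its own row at 4.3 to 7.7 CPM in AEL and 19.5 to 21.4 CPM in NC, and reads may be split between it and Tyms. With both summed, the mean was 66.3 CPM in AEL and 205 CPM in NC, 3.09-fold lower.

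Dut, which hydrolyses dUTP to dUMP and so keeps uracil out of DNA (chromosome 2, 125247190 to 125258608, + strand, 6 exons), was at 259, 261 and 295 CPM in the AEL libraries and 450, 416 and 384 in the NC libraries. It had the smallest of the called changes, at -0.62 on the log2 scale (SE 0.11, edgeR adjusted p = 0.00451), and AEL replicate 3, lowest for Tk1 and Tyms, was the highest AEL library. The log2 ratio of Dut to Tyms was 1.63, 1.98 and 3.30 in AEL against 1.00 to 1.27 in NC, a mean difference of 1.12 that was 0.62 without AEL replicate 3. That of Tk1 to Tyms was 0.19 ± 0.17 in AEL and 1.15 ± 0.09 in NC (SD, n = 3 each). The salvage kinase was thus lower relative to the synthase in AEL, and the synthase lower relative to Dut.

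Dck, the kinase of deoxycytidine and of purine deoxynucleosides (chromosome 5, 88764996 to 88783281, + strand, 7 exons), was at 207, 149 and 128 CPM in the AEL libraries and 421, 382 and 436 in the NC libraries. The groups were clearly apart. The log2 fold change was -1.36 (SE 0.19, edgeR adjusted p = 0.00166). The log2 ratio of Tk1 to Dck was -1.33 ± 0.59 in AEL and -0.02 ± 0.10 in NC (SD, n = 3 each), so of the salvage kinases Tk1 was the one lowered more.

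Samhd1, the triphosphohydrolase that degrades deoxynucleotides outside S phase and is abundant in myeloid cells (chromosome 2, 157097533 to 157135265, - strand, 16 exons), was at 121, 84.0 and 66.8 CPM in the AEL libraries and 151, 179 and 183 in the NC libraries. The highest AEL library came near the lowest NC library without overlap. Its log2 fold change was -0.92 (SE 0.23, edgeR adjusted p = 0.0139). The call ended without NC replicate 2 (adjusted p = 0.0506) or NC replicate 3 (adjusted p = 0.0534). Macrophage and neutrophil markers moved with the groups, as given above, and their part in the difference was not tested. Within AEL, Samhd1 was highest in replicate 1, where the macrophage and monocyte markers summed to 14 CPM. It was lower in replicates 2 and 3, where they summed to 252 and 93.6 CPM. All these sums were far below the 4626 to 5576 CPM of NC, so the order within AEL cannot speak to the difference between the groups. The log2 ratio of Rrm2 to Samhd1 was 1.19 ± 0.24 in AEL and 3.09 ± 0.19 in NC (SD, n = 3 each).

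The enzymes differed in how evenly they fell across the AEL libraries. On the scale of log2(CPM + 1) minus the NC mean, Rrm1 lay at -0.94 to -1.16, Dut at -0.50 to -0.68 and Rrm2 at -2.58 to -2.98. Tk1 lay at -2.23, -2.22 and -3.59 in replicates 1, 2 and 3, and Tyms at -1.13, -1.46 and -2.58. Dck lay at -0.99, -1.47 and -1.69, and Samhd1 at -0.49, -1.01 and -1.34, so for these 4 enzymes replicate 3 was the lowest. The median of 30 replication fork genes was -1.08, -1.28 and -1.18 in the same libraries. Replicate 3 was the lowest AEL library for 10 of the 30 fork genes and 5 of 16 mitosis genes. Counts of about this size would arise if each of the 3 AEL libraries were equally likely to be lowest. They therefore show no general fall of these lists in replicate 3, where the fork median lay between those of replicates 1 and 2. Single genes could be low there, such as Fen1, a flap nuclease of the replication fork picked with its values known. Fen1 stood at 246, 200 and 107 CPM in replicates 1, 2 and 3. The summed erythroid markers were 8998, 4411 and 3268 CPM in the same order, also lowest in replicate 3. Their part in the low values of the 4 enzymes was not tested.

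**Figure D3:**
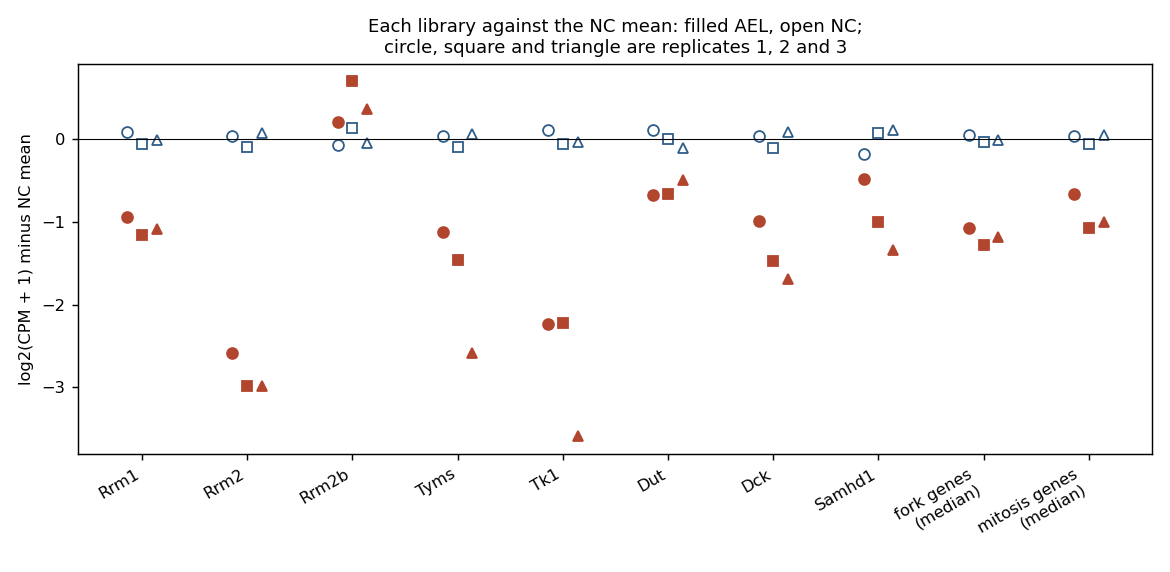
Log2(CPM + 1) minus the NC mean (vertical axis) for each enzyme and for the medians of 30 replication fork and 16 mitosis genes, with AEL filled, NC open, and replicates 1, 2 and 3 as circle, square and triangle. Tk1 and Tyms spread from -2.22 to -3.59 and from -1.13 to -2.58 in AEL, while the fork median stays between -1.08 and -1.28.

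Levels were compared between genes as CPM per kilobase of the principal transcript. In NC the order was Rrm2 at 663 ± 39.8, Rrm1 at 334 ± 17.7, Tk1 at 283 ± 17.9, Dut at 214 ± 16.8, Dck at 134 ± 9.11, Tyms at 58.2 ± 3.42, Samhd1 at 43.6 ± 4.51 and Rrm2b at 2.76 ± 0.235 (SD, n = 3 each), with no overlap between neighbours. In AEL the order was Rrm1 at 160 ± 12.8, Dut at 139 ± 10.3, Rrm2 at 92.3 ± 15.5, Dck at 52.3 ± 13.3, Tk1 at 47.5 ± 21.4, Samhd1 at 23.1 ± 7.12, Tyms at 19.0 ± 8.70 and Rrm2b at 3.80 ± 0.712 (SD, n = 3 each). There Rrm1 and Dut overlapped, as did Dck, Tk1 and Samhd1 with their next neighbours. Rrm2 led in NC and stood behind Rrm1 and Dut in AEL, while Rrm2b was last in both. With merged exons of all transcripts as the length, an alternative chosen after seeing the data, Rrm2 again led in NC. It stood second in AEL, after Dut at 113 and before Rrm1 at 57.9 CPM per kilobase. The NC order changed below Rrm2, with Dut at 173, Rrm1 at 121, Dck at 109 and Tk1 at 78.5 CPM per kilobase.

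Among genes averaging at least 10 CPM, the profiles nearest to Rrm2 over the 6 libraries included those of Grn and Mturn, with root mean square differences of 0.096 and 0.134 between centred log2(CPM + 1) values. The other enzymes were farther from Rrm2, with Tk1 at rank 98, Tyms at 372 and Dck at 477 of 8932 genes, and Rrm2b at 6115. Profiles near that of Samhd1 included Rcbtb1 and Qser1, at 0.087 and 0.089, and Rrm1 and Dck stood at ranks 326 and 336.

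Other genes of DNA replication fell in the same libraries. Of 30 replication fork genes, 25 were called lower and 1 higher, with a median log2 fold change of -1.23. Of 16 mitosis genes 11 were called lower and 0 higher, with a median of -0.89. The share called lower over all genes tested was 29.0%. Rrm2 and Tk1 lay below every gene of both lists: the lowest fork genes were Gins1 at -2.27 (SE 0.12) and Pcna at -1.96 (SE 0.12), and the lowest mitosis genes Ccnb2 at -2.49 (SE 0.25) and Birc5 at -2.15 (SE 0.16). The difference of Tk1 from Ccnb2 was within their SEs. By contrast 24 of the 30 fork genes fell further than Dut, 21 further than Samhd1 and 20 further than Rrm1. The only fork gene called higher was Pole, a DNA polymerase, and none was called higher without NC replicate 1 or 2.

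Known regulators of the enzymes' proteins fell too: 5 of 6 were called lower, against 29.0% of all genes tested, and 0 higher. Their median log2 fold change was -1.10. Ccnf, the cyclin F that marks Rrm2 protein for degradation, was at 69.4 to 104 CPM in AEL and 202 to 222 CPM in NC. On the log2 scale the change was -1.24 (SE 0.17, edgeR adjusted p = 0.00145). Cdk1, which with Ccna2 phosphorylates Samhd1, was at 104 to 135 CPM in AEL and 270 to 325 CPM in NC, at -1.36 (SE 0.14), and Ccna2 was at -0.99 (SE 0.14). Cdk2 was at -1.22 (SE 0.11). Neither the abundance nor the phosphorylation of the proteins was measured.

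**Figure D4:**
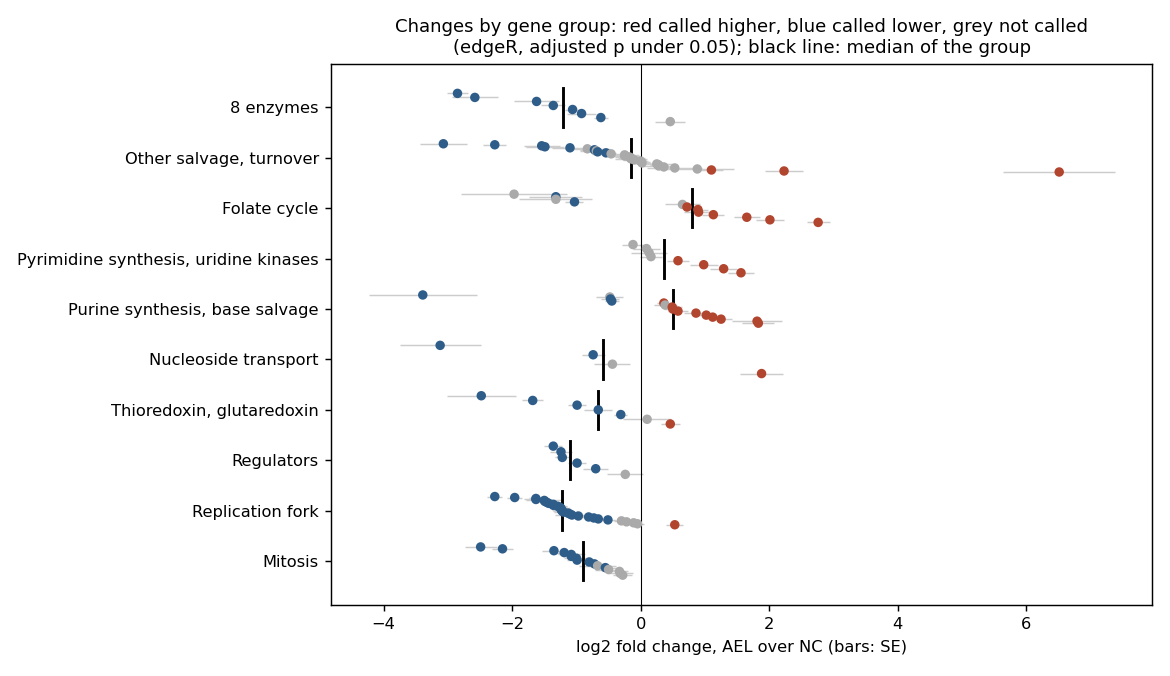
Log2 fold change of AEL over NC (horizontal axis, bars are SE) for the 8 enzymes and 9 gene groups, with genes called higher in red, called lower in blue and not called in grey, and the group's median as a black line. The enzymes have a median of -1.21, close to that of the fork genes at -1.23, while the folate, pyrimidine and purine groups have medians of 0.80, 0.37 and 0.50.

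In the lists for purine, pyrimidine and folate metabolism most called genes were higher in AEL. Of 15 genes of purine synthesis and purine base salvage, 10 rose and 3 fell (median log2 fold change 0.50), and the number called higher was 6 without any single NC replicate. Over all genes tested, 23.9% were called higher. Gart, which carries out several steps of purine ring assembly, rose from 204 to 230 CPM in NC to 364 to 527 CPM in AEL, and Atic, which closes the ring, rose by 1.25 on the log2 scale (SE 0.17). Aprt, which salvages adenine, rose by 1.83 (SE 0.25), and Impdh1, an enzyme of guanine nucleotide synthesis, rose by 1.81 (SE 0.39). Adssl1, an isozyme of adenylosuccinate synthase, fell by 3.39 (SE 0.84), from 24.0 to 28.5 CPM in NC to 0.338 to 5.86 CPM in AEL. Its value was -4.88 without AEL replicate 2 and -2.12 by limma on log2(CPM + 5). The number called lower was 1 without NC replicate 1 or 2 and with library totals alone.

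The pyrimidine list joins synthesis enzymes with the salvage kinases Uck1, Uck2 and Uckl1. Of its 8 genes 4 rose, against 23.9% of all genes tested, and 0 fell (median log2 fold change 0.37). Those that rose were the synthesis genes Cad, Dhodh and Ctps and the kinase Uck2. No member was called lower by edgeR at an adjusted p under 0.05. Cad, whose protein carries the opening steps of the pathway, was at 604, 438 and 699 CPM in the AEL libraries and 179, 222 and 188 in the NC libraries, a rise of 1.56 on the log2 scale (SE 0.20, edgeR adjusted p = 0.00111). The groups were far apart. Dhodh, the next enzyme in the route, rose by 1.29 (SE 0.21) and Uck2, which phosphorylates uridine and cytidine, by 0.98 (SE 0.22). Ctps, which makes CTP, rose by 0.58 (SE 0.17, edgeR adjusted p = 0.0285). It missed the threshold whichever NC replicate was left out (adjusted p from 0.0835 to 0.106) and with the replicate block (0.0657).

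Of 12 folate cycle genes 7 rose, against 23.9% of all genes tested, and 2 fell, against 29.0%. Their median log2 fold change was 0.80. Shmt1, a serine hydroxymethyltransferase of the cytosol that loads folate with a carbon unit, rose by 2.01 (SE 0.22; 1.39 by limma on log2(CPM + 5)), from 5.42 to 6.14 CPM in NC to 21.1 to 26.6 CPM in AEL. Fpgs, which adds glutamates that keep folates in the cell, rose 6.76-fold (log2 fold change 2.76, SE 0.18), and Slc19a1, the reduced folate carrier, rose by 1.65 (SE 0.20). The number called lower was 1 whichever NC replicate was left out and with library totals alone, and 4 by limma.

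Among 29 other genes of deoxynucleotide salvage and turnover, 3 rose and 8 fell (median log2 fold change -0.15), and 18 were not called, a smaller called share than the 52.8% over all genes. The number called lower was 5 without NC replicate 2 or 3, and 5 were called higher with library totals alone. Of the 3 that rose, 2 are deaminases, and the other is the nucleotidase Nt5c3b (log2 fold change 1.10, SE 0.18). Cda, cytidine deaminase, which turns cytidine and deoxycytidine into uridine and deoxyuridine, had 458, 293 and 94 counts in AEL and 3, 1 and 4 counts in NC, or 51.5, 31.8 and 8.60 CPM against 0.118 to 0.461 CPM. Its log2 fold change was 6.51 (SE 0.87, edgeR adjusted p = 0.0014), a value that depends on the prior count (4.28 by limma on log2(CPM + 1)), and AEL replicate 3 was again the lowest of its group. Dctd, dCMP deaminase, which forms the dUMP that Tyms uses, was at 37.1, 30.7 and 39.6 CPM in the AEL libraries and 7.86, 10.0 and 4.95 in the NC libraries. On the log2 scale the change was 2.23 (SE 0.30, edgeR adjusted p = 0.0014). Both were higher in every AEL library than in any NC library.

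Downstream of Tyms and Tk1, Dtymk, thymidylate kinase, fell by 0.67 on the log2 scale (SE 0.11, edgeR adjusted p = 0.00254), with 146 to 171 CPM in AEL and 249 to 264 CPM in NC. Cmpk2, a mitochondrial nucleotide kinase that interferon induces, fell by 2.27 (SE 0.18), and Nme3, a nucleoside diphosphate kinase, fell by 3.07 (SE 0.37), from 103 to 114 CPM in NC to 6.68 to 19.6 CPM in AEL. Dctpp1, which removes dCTP and its analogs, was at 42.0 to 45.4 CPM in AEL and 28.1 to 36.9 CPM in NC and did not pass (edgeR adjusted p = 0.104), although it did with library totals alone (0.0318).

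Since Rrm2b is a p53 target and the AEL libraries are labelled Trp53-/-, other p53 targets are given beside it. Of 14 measured, 3 rose and 6 fell, with a median log2 fold change of -0.68, where 23.9% of all genes tested were called higher and 29.0% lower. Cdkn1a, the cell cycle inhibitor p21, was at 0.225, 0.977 and 0.457 CPM in the AEL libraries and 5.42, 6.02 and 6.22 in the NC libraries. Gdf15, a secreted stress cytokine, was at 0 to 0.326 CPM in AEL and 22.3 to 26.4 CPM in NC, while Zmat3, an RNA-binding protein, rose by 1.90 (SE 0.32).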

How the data were processed

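The authors deposited 1 table of whole-number counts per gene; its name says CPM, but column sums differ between libraries. The submitters' processing notes list mm10 and edgeR 3.32.1 without a role, and the aligner, counter and strandedness were not stated in any source used. Each gene in the table exceeds 1 CPM in at least 2 libraries. No library repeats another (chi-square per degree of freedom 4.822 or more). Counts were tested with edgeR 4.0.16 (R 4.3.3) by the quasi-likelihood test with TMM factors (0.9254 to 1.099) and a group term, on genes reaching 1 CPM in 3 libraries or more, with Benjamini-Hochberg adjustment over all genes tested at 0.05. SE is the absolute log2 fold change over the square root of F. CPM uses totals times TMM factors. Alternatives were DESeq2 1.42.0, limma 3.58.1, other scalings and filters, the replicate block and leaving out each library. The test was checked on simulated counts. Members and lists were chosen with earlier results of these data known, and the motifs after the sequences were seen. Named are the 8 enzymes, Erg and Trp53, some genes fixed by name (Dctd, Dtymk, Dctpp1, Cad, Ccnf, Cdk1, Cdkn1a), up to 4 called genes with the largest changes per nucleotide list (2 per comparison list) among those at 10 CPM or more in the higher group, and the nearest genes; some genes under this rule are not reported here. Gart, Pole, Fen1, Uck1, Uckl1, Nt5c3b, Txnrd1, Glrx2, Slc29a2, Pnp and Pnp2 were chosen after their values were seen. Afmid, Gm49085 and Tyms-ps were chosen for their overlap or likeness to an enzyme. Coordinates and lengths are from GENCODE M21 (GRCm38, the assembly of mm10), promoters from RefSeq GRCm38.p6, matched by symbol for 7 of 8 enzymes.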

Additional observations from a re-analysis of the deposited data

How the results depend on the processing

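Over 18 alternatives of scaling, filter, tool, replicate block and left-out library, Rrm1, Rrm2, Tyms, Tk1, Dut and Dck were called lower under each, and Samhd1 under 16, the exceptions being those without NC replicate 2 or 3. The number of enzymes called lower was 6 or 7 and the number called higher 0, except 1 (Rrm2b) without AEL replicate 1. Fold changes on the log2 scale ranged from -2.91 to -2.66 for Rrm2, from -2.76 to -2.21 for Tk1 and from -0.68 to -0.43 for Dut. Leaving out 1 library gave 1877 to 3447 genes called higher, against 2965, and 16 to 25 genes of the nucleotide lists called lower, against 25. Libraries of the same number did not deviate together (correlations of 0.06, -0.07 and -0.11). These correlations gave no sign that the numbers pair the libraries, but they cannot exclude it. The replicate block gave 5479 calls against 6564 and changed no call among the enzymes. Higher genes were 45.2% of those called, and 55.2% with library totals alone, where the all-gene median was 0.14. Ratios between enzymes kept their sign with prior counts of 0.5 and 2 and without each library. Leaving out an NC library gave 4636 to 4746 calls in all. Depth limits Cda in NC, where its counts were 3, 1 and 4.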

Other observations

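Genes of the thioredoxin and glutaredoxin systems, from which ribonucleotide reductase draws electrons, were mostly lower in AEL. The list joins cytosolic and mitochondrial genes, so it is wider than the donors of that enzyme. Of 7 thioredoxin and glutaredoxin genes, 5 fell, against 29.0% of all genes tested, and 1 rose, with a median log2 fold change of -0.66. The number called lower was 3 without any single NC replicate or with library totals alone. Txn1, the cytosolic thioredoxin, was at 144 to 188 CPM in AEL and 307 to 358 CPM in NC (log2 fold change -0.99, SE 0.14). Txnrd2, the mitochondrial thioredoxin reductase, fell by 1.68 (SE 0.16). Txnrd1, the other thioredoxin reductase of the list, was chosen after its values were seen. It was at 84.1, 87.3 and 216 CPM in the AEL libraries and 112 to 129 CPM in NC. The groups overlapped, and it was not called (log2 fold change 0.10, SE 0.37, edgeR adjusted p = 0.842). Glrx, a glutaredoxin, fell by 2.48 (SE 0.54), or had a log2 fold change of -3.24 without AEL replicate 2, from 51.5 to 59.6 CPM in NC to 3.57 to 18.1 CPM in AEL. Gsr, glutathione reductase, was at -0.66 (SE 0.22), a call lost without AEL replicate 3, without any single NC replicate and with library totals alone, and its change was -0.37 without AEL replicate 1. Glrx2, a mitochondrial glutaredoxin chosen after its values were seen, was the gene that rose, by 0.46 (SE 0.15), a call lost without AEL replicate 2 or 3, without any single NC replicate, with the replicate block and with upper-quartile scaling.

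Nucleoside transporters went both ways. Slc29a1, the main equilibrative carrier, was at 178 to 287 CPM in AEL and 385 to 407 CPM in NC (log2 fold change -0.74, SE 0.18). Slc28a2, a concentrative carrier, fell by 3.12 (SE 0.63), with values of -3.90 without AEL replicate 2 and -1.36 by limma on log2(CPM + 5). Slc29a2, chosen after its values were seen, rose by 1.88 (SE 0.34) from 1.68 to 2.72 CPM in NC to 6.94 to 8.33 CPM in AEL. Purine nucleoside phosphorylase had near-identical copies in the table, and both fell, with log2 fold changes of -1.49 (SE 0.29) for Pnp and -1.54 (SE 0.28) for Pnp2, chosen after their values were seen, with the split of reads between them uncertain.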
